A study of Mus musculus with 8 samples.

Results

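Genes of T cell costimulation were examined in Treg cells with and without Ripk1, namely the TNF receptor superfamily members *Tnfrsf4*, *Tnfrsf9*, *Tnfrsf18*, *Tnfrsf8*, *Tnfrsf1b*, *Tnfrsf25* and *Cd27*, the receptor adaptor *Traf1*, and *Icos*. They were taken by symbol, and are 9 of the 42748 genes counted. The members, and the gene lists set beside them below, were chosen with earlier results of these data known. Of the 9, 7 had counts and passed the filter on low counts, and *Tnfrsf18* and *Cd27* are listed at 0 in all 8 libraries. The RNA came from CD4+ CD25+ cells, sorted from the pooled spleen and lymph nodes of female Ripk1 fl/fl Foxp3Cre-YFP/wt mice. In these mice the Cre-YFP fusion is driven by the X-linked *Foxp3* locus, and random X inactivation leaves a Ripk1-proficient YFP- and a Ripk1-deficient YFP+ fraction of Treg cells in the same animal. Bulk RNA-seq was done on 4 YFP- libraries (genotype label Ripk1+/+) and 4 YFP+ libraries (genotype label Ripk1 -/-), numbered 21, 46, 48 and 53 in each group. All cells carry the floxed *Ripk1* alleles, only YFP+ cells express Cre-YFP, and no library of Cre-expressing cells with intact *Ripk1* was analysed here, so the loss of Ripk1 and the knock-in cannot be told apart. The labels give no age, and do not say whether libraries of 1 group came from separate mice, so the spread on which p-values rest may be technical.

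Receptors of this family are engaged by trimeric TNF-type ligands on neighbouring cells. They lack kinase activity and recruit TRAF adaptor proteins, which activate NF-κB and support survival and proliferation after antigen recognition. ICOS belongs instead to the CD28 family and signals through PI3 kinase. Treg cells are known for high surface OX40 (*Tnfrsf4*), GITR (*Tnfrsf18*) and TNFR2 (*Tnfrsf1b*), and ICOS marks activated, effector-type Treg cells. Ripk1 itself is a signalling adaptor of death-domain receptors in this family.

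Total counts were 43737313 to 70782679 in YFP- and 29719251 to 55371610 in YFP+ libraries. Levels are given as CPM, that is counts scaled to library size, each size being multiplied by edgeR's TMM factor. The YFP+ library 21 stood apart: it had 9571 genes with at least 10 counts, where its 3 counterparts had 13047 to 15550, and its highest correlation with any other library was 0.731, against 0.929 to 0.985 for the rest. The YFP+ library 48 had the highest summed level of B cell markers (4531 CPM, against 1264 to 1753 CPM in YFP- libraries), and of macrophage, erythroid, stromal, plasma cell and CD8 T and NK markers. *Ighm* gave most of the B cell sum in YFP- libraries (1164 to 1630 CPM) and was lower in YFP+ 21, 46 and 53. *Cd79a* had 30.2, 192, 791 and 62.5 CPM in YFP+ 21, 46, 48 and 53, against 19.9 to 28.5 CPM in YFP- libraries. *Pax5* had 12.4, 16.9, 43.5 and 4.86 CPM there, against 1.86 to 3.73 CPM. The other B cell markers were not above their YFP- range in all 4 YFP+ libraries. Macrophage markers were above the YFP- range (12.1 to 25.7 CPM) in all 4 YFP+ libraries, at 66.4, 61.3, 472 and 44.0 CPM in 21, 46, 48 and 53. Plasma cell markers (202 to 231 CPM in YFP- libraries; 90.9, 304, 751 and 428 CPM), stromal markers (0.0967 to 2.71; 0.142, 7.81, 146 and 4.84 CPM) and CD8 T and NK markers (17.4 to 31.5; 61.1, 26.0, 100 and 51.2 CPM) were above it in 3 of 4. Single genes gave most of some sums. In YFP+ 21 *Cd8b1* had 60.9 CPM, while *Cd8a* had 0.0474 CPM (1.13 to 5.72 in YFP- libraries) and *Eomes* 0. *Xbp1* gave most of the plasma cell sum in YFP- libraries (191 to 216 CPM). *Jchain* was above its YFP- range in YFP+ 46, 48 and 53, and *Sdc1* had 0 CPM in 46 and 53. Sums for other cell types thus moved with the comparison of the fractions and not only in library 48. Single markers did not all move with their sum. The part of other cell types in the members' values was not tested. Results are therefore given with and without these libraries; leaving out both together was added after the data were seen. T cell markers summed to 5704 to 7031 CPM in the YFP- and to 6647 to 9133 CPM in the YFP+ fraction. The sum hides opposite shifts in the YFP+ library 21. *Cd4* (84.4 CPM, against 372 to 469 in YFP- libraries), *Cd6* (11.3, against 543 to 675), *Cd5*, *Cd3e* and *Lck* were below their YFP- ranges there. *Cd2* (3398, against 1065 to 1364), *Cd3d* and *Cd3g* were above theirs. Treg markers other than *Foxp3*, which is listed at 0 in all 8 libraries, summed to 2525 to 2842 CPM in the YFP- and to 1482 to 2312 CPM in the YFP+ fraction. In YFP+ 21 *Ikzf2* was above its YFP- range (897, against 257 to 603 CPM), and the other Treg markers with counts were below theirs. The part of these shifts in the members' values was not tested. *Ripk1* RNA stood at 29.4 ± 10.6 and 22.5 ± 6.09 CPM in the YFP- and YFP+ fractions (SD, n = 4 each), and a count over the whole gene does not show whether the floxed part is missing.

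*Tnfrsf8* alone of the 7 tested members changed over all 8 libraries, and it fell (1 of 7, where 0.836% of the 15063 tested genes were lower and 0.0332% higher in edgeR's quasi-likelihood test at an adjusted p under 0.05). *Tnfrsf1b*, *Tnfrsf25* and *Traf1* had every YFP+ library below every YFP- library without passing that test. *Icos* had this separation in the YFP+ libraries 46, 48 and 53 only, *Tnfrsf4* did not have it, and *Tnfrsf9* was near the detection floor. With *Tnfrsf8* this makes 4 of 7 members with non-overlapping groups, where 10.6% of all tested genes had every YFP+ below every YFP- library. With YFP+ 21 left out it is 5 of 7, against 13.7% of 15832 genes, and 4 of 7 members fell in edgeR (*Tnfrsf8*, *Tnfrsf1b*, *Traf1* and *Icos*) with 0 higher, against 3.97% of genes lower and 2.68% higher. DESeq2 over all 8 libraries called 2 of the 7 lower, *Tnfrsf8* and *Traf1*, against 4.43% of genes lower. Because the members were chosen with earlier results known, these shares are descriptions only.

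Of the 9 genes, 6 lie on chromosome 4 (all but *Cd27*, *Traf1* and *Icos*). Promoters are shown for the 4 genes whose groups did not overlap. *Tnfrsf25* has 2 windows, and the one printed is the one with matches. The other, at the annotated start of the gene, has none and is not printed. The windows run from 250 bases before to 50 bases after the start site in RefSeq on GRCm38.p6, written along the gene's strand. Capitals mark matches to the NF-κB consensus, searched by script on both strands because NF-κB is the pathway downstream of these receptors.
Tnfrsf8, chr4:145315115-145315414, minus strand: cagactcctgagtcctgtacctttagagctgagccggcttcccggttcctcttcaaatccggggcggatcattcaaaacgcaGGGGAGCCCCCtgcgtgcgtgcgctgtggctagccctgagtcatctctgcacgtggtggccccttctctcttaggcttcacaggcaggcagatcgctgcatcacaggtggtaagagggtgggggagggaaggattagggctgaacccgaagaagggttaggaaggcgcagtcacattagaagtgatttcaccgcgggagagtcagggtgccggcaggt
Tnfrsf1b, chr4:145246821-145247120, minus strand: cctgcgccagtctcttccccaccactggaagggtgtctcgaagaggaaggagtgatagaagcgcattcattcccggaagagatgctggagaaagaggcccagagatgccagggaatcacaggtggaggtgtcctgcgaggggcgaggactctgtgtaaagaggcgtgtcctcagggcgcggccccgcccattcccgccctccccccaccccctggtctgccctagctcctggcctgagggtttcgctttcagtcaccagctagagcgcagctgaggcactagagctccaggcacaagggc
Tnfrsf25, second start site, chr4:152116093-152116392, plus strand: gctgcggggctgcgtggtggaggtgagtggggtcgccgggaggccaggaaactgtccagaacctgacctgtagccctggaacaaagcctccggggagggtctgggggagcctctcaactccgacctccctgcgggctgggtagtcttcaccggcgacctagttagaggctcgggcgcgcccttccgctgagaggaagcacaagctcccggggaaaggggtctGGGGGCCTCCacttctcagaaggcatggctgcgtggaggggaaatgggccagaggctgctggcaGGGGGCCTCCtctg
Traf1, chr2:34961723-34962022, minus strand: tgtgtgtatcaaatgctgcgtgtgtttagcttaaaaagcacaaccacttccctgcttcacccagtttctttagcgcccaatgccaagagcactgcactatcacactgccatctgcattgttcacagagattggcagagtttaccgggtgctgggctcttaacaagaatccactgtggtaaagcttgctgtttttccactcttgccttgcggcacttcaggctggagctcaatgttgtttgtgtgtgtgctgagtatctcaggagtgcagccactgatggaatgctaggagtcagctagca
The *Tnfrsf8* window holds overlapping matches on both strands, beginning 168 and 167 bases before the start site. The second *Tnfrsf25* window holds 2, beginning 28 bases before and 36 bases after it, and the *Tnfrsf1b* and *Traf1* windows hold none. Of the members' other windows, the second of *Tnfrsf9* has overlapping matches beginning 43 and 42 bases before the start site, and the first of *Tnfrsf9*, the first of *Tnfrsf25*, and those of *Tnfrsf4*, *Tnfrsf18* and *Cd27* have none. In all, 2779 of 32851 windows (8.46%) contain the consensus. These are matches of letters only.

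*Tnfrsf8* encodes CD30, an activation-induced receptor that binds the CD30 ligand made from *Tnfsf8*. It lies at chr4:145267137-145315164 on the minus strand (GRCm38, GENCODE M21). The YFP- libraries 21, 46, 48 and 53 had 1328, 1998, 1819 and 1297 counts, and the YFP+ libraries of the same numbers had 7, 8, 2 and 3. In CPM these are 17.6, 24.9, 37.6 and 17.9 against 0.332, 0.178, 0.0385 and 0.0688. Every YFP+ library was thus near the level of 3 counts (0.0577 to 0.142 CPM in YFP+ libraries), and all YFP- libraries were far above it. The mean went from 24.5 ± 9.36 to 0.154 ± 0.133 CPM (SD, n = 4 each). The log2 fold change was -7.36 (standard error, SE, 0.88; adjusted p = 0.0328 from edgeR), with p = 0.0286 in a two-sided exact permutation test on log2(CPM + 1), the smallest that 4 against 4 allow. Summed over libraries, 6442 counts stood against 20, a ratio of levels of 188 (95% exact interval 122 to 309, counting error only). Of the 8743 tested genes with at least 10 CPM in the mean of YFP- libraries, 7 (0.0801%) had a YFP+ mean under 1% of it, and *Tnfrsf8* was 1 of these 7. The 8743 genes were picked by their YFP- mean and the reverse was not counted, so this share is a description only. *Tnfrsf8* passed the filter on low counts through its YFP- libraries, and with no filter its adjusted p was 0.0331 from edgeR. In bulk RNA, fewer CD30-expressing cells and less *Tnfrsf8* RNA per cell cannot be told apart. With the YFP+ library 21 left out the log2 fold change was -8.002 (SE 0.68, adjusted p = 0.00532). The call was lost without the YFP+ library 46 (adjusted p = 0.0733) or 53 (0.0668) and without any 1 of the YFP- libraries (0.0923 to 0.126), settings in which edgeR called 0 genes at all (unadjusted p under 0.05 for 1130 to 2326 genes). It was also lost with the library number as a block (adjusted p = 0.347 from edgeR), though equal numbers are not stated to share a mouse.

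*Tnfrsf1b* encodes TNFR2, the TNF receptor that Treg cells use for expansion. It is the next annotated protein-coding gene to *Tnfrsf8*, 20266 bases away at chr4:145213463-145246870, also on the minus strand. The YFP- libraries 21, 46, 48 and 53 measured 139, 186, 284 and 179 CPM, and the YFP+ libraries 3.70, 90.9, 84.4 and 85.6 CPM. All 4 YFP+ libraries were lower, with 3 of them within a narrow range and library 21 far below these. Group means were 197 ± 61.9 and 66.2 ± 41.7 CPM (SD, n = 4 each; two-sided exact permutation p = 0.0286). The log2 fold change was -1.57 (SE 0.78, adjusted p = 0.443 from edgeR). Leaving out YFP+ 21 gave a smaller but more precise value of -1.19 (SE 0.24; adjusted p = 0.0352), and without both 21 and 48 it was -1.17 (adjusted p = 0.0737). In library 21 *Tnfrsf1b* had 1.88% of its YFP- mean. Of 1025 genes within 1.5-fold of its YFP- level, 6.83% were as low or lower there, and their median stood at 104%. The nearest protein-coding genes flanking the pair did not pass the test: *Vps13d* had a log2 fold change of 0.55 (adjusted p = 0.686) and *Zfp990* of 0.05 (adjusted p = 0.978).

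**Figure D1:**
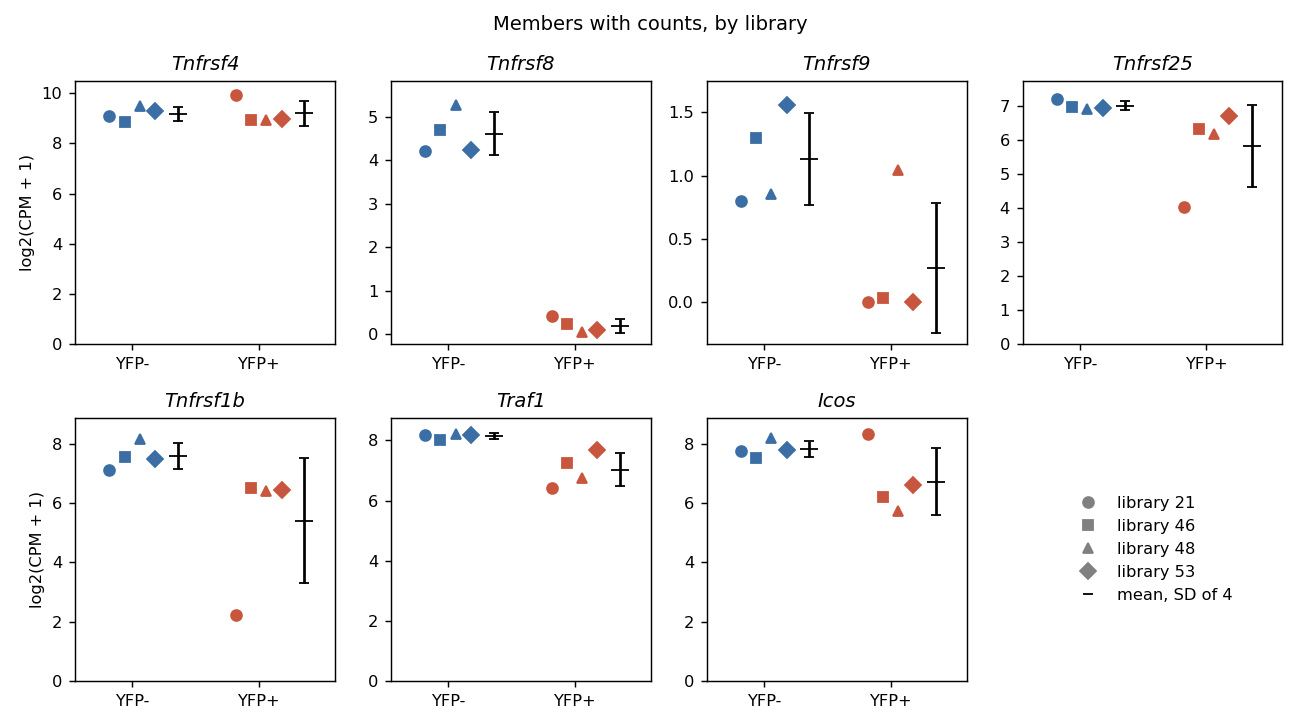
Level of each member with counts, as log2(CPM + 1), by library; symbols mark the library number, and black bars the mean and SD of 4 libraries per fraction. *Tnfrsf8* lies near 0 in every YFP+ library, and the YFP+ library 21 is far below the other 3 for *Tnfrsf1b* and above them for *Tnfrsf4* and *Icos*.

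*Tnfrsf25* encodes DR3, a death-domain receptor for TL1A whose stimulation expands Treg cells in mice. It lies at chr4:152115934-152120119 on the plus strand. In YFP- 21, 46, 48 and 53 it stood at 146, 125, 119 and 122 CPM, a narrow range, and the YFP+ libraries had 15.4, 79.7, 71.7 and 104 CPM. All YFP+ libraries were again lower, and library 21 was the lowest. Means were 128 ± 12.3 and 67.6 ± 37.4 CPM (SD, n = 4 each; two-sided exact permutation p = 0.0286). The log2 fold change of -0.92 (SE 0.50, adjusted p = 0.471 from edgeR) did not pass, nor did -0.60 without the YFP+ library 21 (SE 0.15, adjusted p = 0.0639). Its neighbours *Espn*, 211 bases away, and *Plekhg5*, 533 bases away, stood at -0.95 and -0.74 on that scale (adjusted p = 0.733 and 0.780).

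*Tnfrsf4* encodes OX40, a receptor kept at high level on resting mouse Treg cells, and lies at chr4:156013843-156016612 on the plus strand. The YFP- libraries 21, 46, 48 and 53 measured 543, 458, 721 and 622 CPM, and the YFP+ libraries 967, 485, 492 and 500 CPM. The groups overlapped, with the highest value of all in the YFP+ library 21 and the other 3 YFP+ libraries close together at the low end of the YFP- range. The log2 fold change was 0.06 (SE 0.28, adjusted p = 0.947 from edgeR; two-sided exact permutation p = 1). Its sign turned without the YFP+ library 21, to -0.26 (SE 0.15, adjusted p = 0.337). Of the members with counts, *Tnfrsf4* was also the most abundant per length. In CPM per kilobase of annotated exons, its YFP- level was 429 (range 336 to 528). *Icos* (66.3, range 53.4 to 84.99), *Tnfrsf25* (56.2, 52.4 to 64.2) and *Tnfrsf1b* (51.6, 36.3 to 74.5) followed, and their ranges overlapped. *Traf1* stood lower, at 32.1 (28.9 to 33.6), and *Tnfrsf8* at 7.09 (5.08 to 10.9). In YFP+ libraries the means of these 6 genes kept this order, from *Tnfrsf4* at 448 to *Tnfrsf8* at 0.0446 CPM per kilobase, but the place of *Icos* rested on library 21. Over YFP+ 46, 48 and 53, *Icos* stood at 21.5 (15.1 to 28.0), below *Tnfrsf25* at 37.3 (31.5 to 45.5), and its range overlapped those of *Tnfrsf1b* (22.8, 22.1 to 23.8) and *Traf1* (17.4, 12.2 to 22.9).

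**Figure D2:**
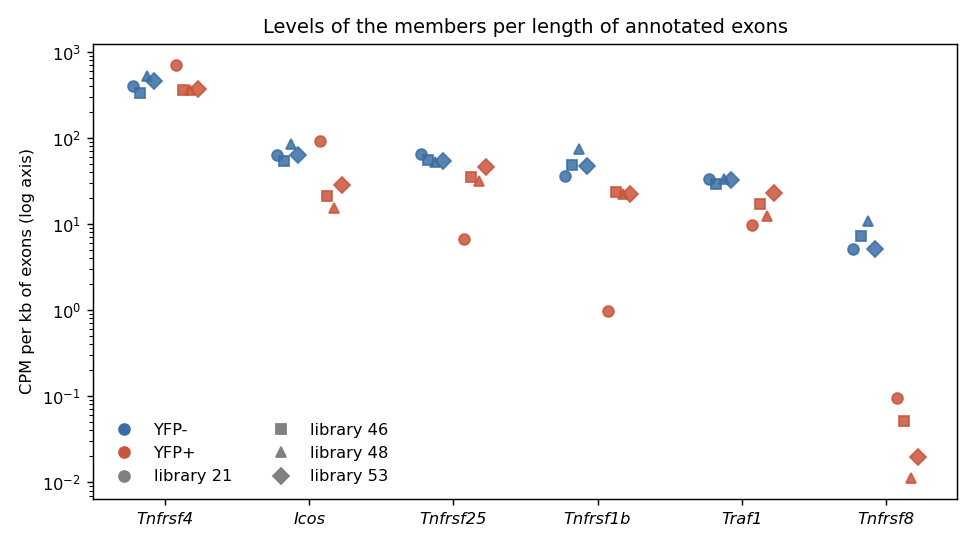
Level of 6 members in CPM per kilobase of annotated exons, on a log axis, by library (blue YFP-, red YFP+; symbols mark the library number). *Tnfrsf4* is the highest of these 6 in both fractions, and *Tnfrsf8* drops from 7.09 to 0.0446 in the mean.

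*Tnfrsf9* encodes 4-1BB, a receptor induced by T cell receptor signals, and lies at chr4:150914562-150946102 on the plus strand. It had 56, 117, 39 and 141 counts in the YFP- libraries 21, 46, 48 and 53, and 0, 1, 55 and 0 counts in the YFP+ libraries. The YFP+ library 48 thus lay within the YFP- range (1.06 CPM, against 0.742 to 1.95 CPM), and the other 3 were at or next to 0. The log2 fold change over all libraries was -2.15 (SE 1.51, adjusted p = 0.572 from edgeR; two-sided exact permutation p = 0.0857). It passed when YFP+ 48 was left out (adjusted p = 0.0435), as it did without 21 and 48 (adjusted p = 0.0341). In these settings it passed the filter on low counts through its YFP- libraries alone, and no unfiltered fit was made. The library left out holds nearly all of its YFP+ counts, so these calls are descriptions only. Summed counts over all libraries were 353 against 56, a ratio of levels of 3.69 (95% exact interval 2.77 to 4.98, counting error only). With YFP+ 48 left out they were 353 against 1, a ratio of 140 (24.97 to 5546), so this 1 library sets the size of the difference. That library had the highest marker sums of other cell types, and their part in its *Tnfrsf9* counts was not tested. *Camta1* runs over *Tnfrsf9* on the other strand, and 5.58% of the exon bases of *Tnfrsf9* (152 of 2722) are free of other annotated genes. Which part of the gene these counts cover was not tested.

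*Tnfrsf18* encodes GITR and *Cd27* the receptor for CD70, both common Treg cell surface markers, and both had 0 counts in all 8 libraries. *Tnfrsf18* (chr4:156026164-156028895, plus strand), 9551 bases from *Tnfrsf4*, lies wholly within the antisense gene *Gm16008*. *Cd27* (chr6:125232622-125237010, minus strand) lies wholly within *Vamp1*. Of 1343 protein-coding genes with no exon base free of another gene, 1100 (81.9%) are at 0 in all 8 libraries, against 82 of 322 (25.5%) with under 10% free and 2364 of 13833 (17.1%) with all exon bases free. Nothing on the expression of *Tnfrsf18* or *Cd27* can be read from these counts. *Tnfrsf9* belongs to the class with under 10% free, and whether the overlap lowers its counts is not known. Why these genes have few or no counts was not tested. Neither the counting tool nor its strand mode was stated in the sources used here.

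*Traf1* encodes an adaptor that joins TRAF2 at receptors such as 4-1BB, CD30 and TNFR2, and lies at chr2:34941750-34961772 on the minus strand. In YFP- 21, 46, 48 and 53 it stood at 292, 255, 297 and 288 CPM, and the YFP+ libraries 85.1, 150, 108 and 202 CPM. The YFP- values lay close together and every YFP+ value was below them. Means were 283 ± 18.8 and 136 ± 51.6 CPM (SD, n = 4 each; two-sided exact permutation p = 0.0286). The log2 fold change was -1.05 (SE 0.28), with adjusted p = 0.178 from edgeR and 0.0333 from DESeq2. With YFP+ 21 left out it was -0.89 (SE 0.20, adjusted p = 0.0472 from edgeR), and without 21 and 48 it was -0.69 (adjusted p = 0.0544). Of the members with non-overlapping groups, it was the one whose library 21 kept most of the YFP- mean (30.1%).

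*Icos* encodes the costimulatory receptor for ICOS ligand and lies at chr1:60977927-61000320 on the plus strand. The YFP- libraries 21, 46, 48 and 53 measured 216, 183, 292 and 219 CPM, and the YFP+ libraries 317, 73.1, 51.9 and 96.1 CPM. The YFP+ libraries 46, 48 and 53 were below all YFP- libraries, and library 21 was above them. On the log2 scale the fold change was -0.76 (SE 0.55, adjusted p = 0.588 from edgeR; two-sided exact permutation p = 0.143). Leaving out YFP+ 21 moved it to -1.63 (SE 0.24, adjusted p = 0.0188), and without 21 and 48 it was -1.43 (adjusted p = 0.0264). At 32.4% of the YFP- mean in the 3 remaining libraries, this fall was larger than that of *Tnfrsf1b* (44.1%) or *Traf1* (54.3%), a difference between genes that was not tested. The nearest protein-coding gene that does not overlap *Icos* is *Ctla4*, 62094 bases away and encoding the inhibitory receptor of the same family. *Ctla4* fell over all 8 libraries (log2 fold change -1.26, SE 0.20, adjusted p = 0.0373 from edgeR), its YFP+ library 21 being at 193 CPM, below the YFP- range of 350 to 423 CPM. That call was lost in 10 of 15 alternatives, among them RLE factors (adjusted p = 0.0585), no filter on low counts (0.0689) and a filter at 5 CPM in 4 libraries (0.125).

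**Figure D3:**
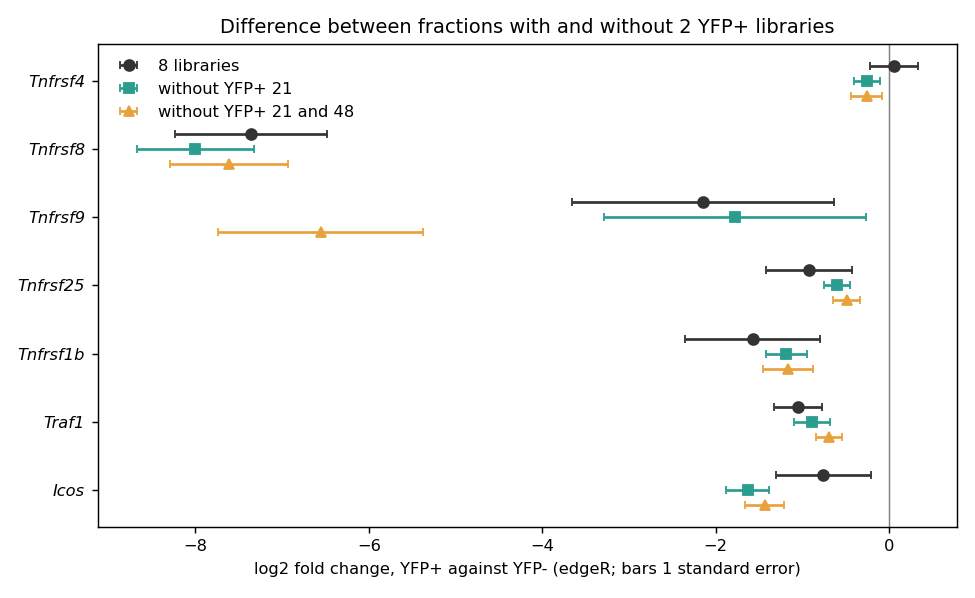
Log2 fold change of each tested member, YFP+ against YFP- (edgeR), with 1 SE, over 8 libraries, without the YFP+ library 21 and without the YFP+ libraries 21 and 48. *Tnfrsf8* keeps a fall of over 7 units in each, *Icos* moves from -0.76 to -1.63, *Tnfrsf4* crosses 0, and *Tnfrsf9* depends on library 48.

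Across the 8 libraries the members did not follow a single pattern, and library 21 sets much of the likeness. Over log2(CPM + 1), *Tnfrsf1b* and *Tnfrsf25* had Pearson r = 0.964, and *Tnfrsf1b* and *Icos* r = -0.137. Over the 7 libraries other than YFP+ 21 these were 0.681 and 0.909. *Icos* and *Traf1* went from 0.353 to 0.971. These values mix the difference between groups with the spread inside them and share library 21, so they are descriptions only. Among 10080 tested genes with a mean of at least 5 CPM, the closest to *Tnfrsf1b* was *Cd101* (r = 0.995), then *Ccr8* (r = 0.993), a chemokine receptor. *Il7r*, the IL-7 receptor, was closest to *Icos* (r = 0.975), *Dcaf8* to *Traf1* (r = 0.992), *Tspyl2* to *Tnfrsf25* (r = 0.999), *Crcp* to *Tnfrsf4* (r = 0.981) and *Il18rap*, an IL-18 receptor subunit, to *Tnfrsf9* (r = 0.952). Closest to *Tnfrsf8* were *Gm3005* and *Gm2956* (r = 0.991 and 0.990).

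Of 10 ligand genes set beside these receptors 9 were tested and 1 fell, with and without the YFP+ library 21 (0.836% and 3.97% of all tested genes were lower). *Tnfsf15*, which encodes TL1A, the ligand of DR3, had 30 to 121 counts in YFP- libraries and 0 in each YFP+ library (edgeR, adjusted p = 0.0394). It passed the filter on low counts through its YFP- libraries alone, and did not pass the test with no filter (adjusted p = 0.0818). Its YFP- mean of 1.16 ± 0.503 CPM (SD, n = 4) is at least 13.8-fold above the floor of 3 counts per library averaged over YFP+ libraries. With any 1 YFP- library left out, or with YFP+ 46 or 53 left out, 0 ligand genes passed in edgeR. *Tnfsf8*, the ligand of CD30, had means of 125 ± 12.8 and 98.2 ± 29.7 CPM in YFP- and YFP+ cells (SD, n = 4 each; log2 fold change -0.34, adjusted p = 0.609 from edgeR). *Tnf*, a ligand of TNFR2, had 9.57 to 21.7 CPM in YFP- libraries and 0, 3.50, 3.14 and 0 CPM in YFP+ 21, 46, 48 and 53. Its groups did not overlap, but it did not pass (log2 fold change -3.14, SE 1.66, adjusted p = 0.468 from edgeR). With *Tnfsf15* this made 2 of 9 tested ligand genes with every YFP+ below every YFP- library, against 10.6% of all tested genes. *Ltb*, a lymphotoxin subunit and the most abundant ligand gene, had a log2 fold change of -0.05 (adjusted p = 0.909), and 0.01 without the YFP+ library 21. *Lta*, the other subunit, had 93.3 to 110 CPM in YFP- libraries, 81.5 to 112 CPM in YFP+ 46, 48 and 53, and 0.0948 CPM in library 21 (log2 fold change -0.51, adjusted p = 0.888). The median log2 fold change of the ligand genes was -0.58, or -0.18 without the YFP+ library 21, against -0.02 and -0.01 for all genes tested and -1.05 and -1.19 for the 7 members. Setting *Tnfsf15* at its bound leaves the ligand medians at these values.

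Among 21 other receptors of the superfamily, 13 were tested and 0 passed over 8 libraries in edgeR. *Fas*, the death receptor, ranged from 84.9 to 121 CPM in the YFP- and from 106 to 228 CPM in the YFP+ fraction (log2 fold change 0.69, SE 0.27, adjusted p = 0.355). Without the YFP+ library 21, *Tnfrsf26* fell and *Tnfrsf13c* rose among 15 tested (adjusted p = 0.0428 and 0.0433). *Tnfrsf26*, a decoy-type receptor of mice, had 130 to 134 CPM in YFP- libraries, 85.7, 101 and 102 CPM in YFP+ 46, 48 and 53 and 0 counts in library 21. *Tnfrsf13c*, the BAFF receptor of B cells, had 0, 28.3, 118 and 12.8 CPM in YFP+ 21, 46, 48 and 53, and 4.78 to 6.85 CPM in YFP- libraries. It was highest in the library with the highest B cell marker sum, and the part of B cell RNA in it was not tested. *Tnfrsf13b*, which encodes TACI, had 0.237 CPM in the YFP+ library 21 and 150 to 239 CPM in YFP+ 46, 48 and 53, against 85.4 to 119 CPM in YFP- libraries (log2 fold change 0.33, adjusted p = 0.933, and 0.74, adjusted p = 0.0732, without library 21).

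Of 22 TRAF and NF-κB adaptors tested, 0 passed over 8 libraries in edgeR, and 16 had a negative log2 fold change, as did 7668 of all 15063 tested genes. With YFP+ 21 left out, *Tnfaip3* fell, the A20 gene that NF-κB induces and that restrains it (-0.86, SE 0.15, adjusted p = 0.0259). It measured 70.3 to 101 CPM in YFP- libraries, 43.0, 48.5 and 51.9 CPM in YFP+ 46, 48 and 53, and 0.0474 CPM in library 21. *Nfkbia*, another NF-κB-induced inhibitor, had a log2 fold change of -0.07 (adjusted p = 0.936) and 0.13 without library 21. *Traf3ip3* had -0.44 (adjusted p = 0.402), and *Tank*, a TRAF-binding protein, had 0.47 (adjusted p = 0.662), or -0.14 without library 21, where it stood at 829 CPM while YFP+ 46, 48 and 53 had 230 to 290 CPM. The list's median was -0.28, or -0.19 without library 21.

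Of the 4 CD28 family genes other than *Icos*, *Ctla4* fell and 0 rose. With YFP+ 46 or 53 left out, or any 1 YFP- library, 0 of these 4 passed in edgeR. *Cd28*, the primary costimulatory receptor, had 407 to 489 CPM in YFP- libraries and 316, 375, 545 and 1201 CPM in YFP+ libraries, the last in library 21 (log2 fold change 0.45, adjusted p = 0.675, and -0.12 without that library). *Btla*, an inhibitory receptor that binds the TNF receptor family member HVEM, had a log2 fold change of 0.79 (adjusted p = 0.406). Of 11 genes that act downstream of ICOS or control its RNA, 0 passed in edgeR with or without library 21, with medians of 0.05 and -0.03. *Pik3cd* and *Pik3r1*, subunits of the PI3 kinase that ICOS recruits, had -0.50 (adjusted p = 0.655) and 0.61 (adjusted p = 0.349). *Rc3h1*, which encodes Roquin, a repressor of *Icos* RNA, had 1.23 (adjusted p = 0.469), with 734 CPM in the YFP+ library 21 against 95.1 to 192 CPM in the others.

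**Figure D4:**
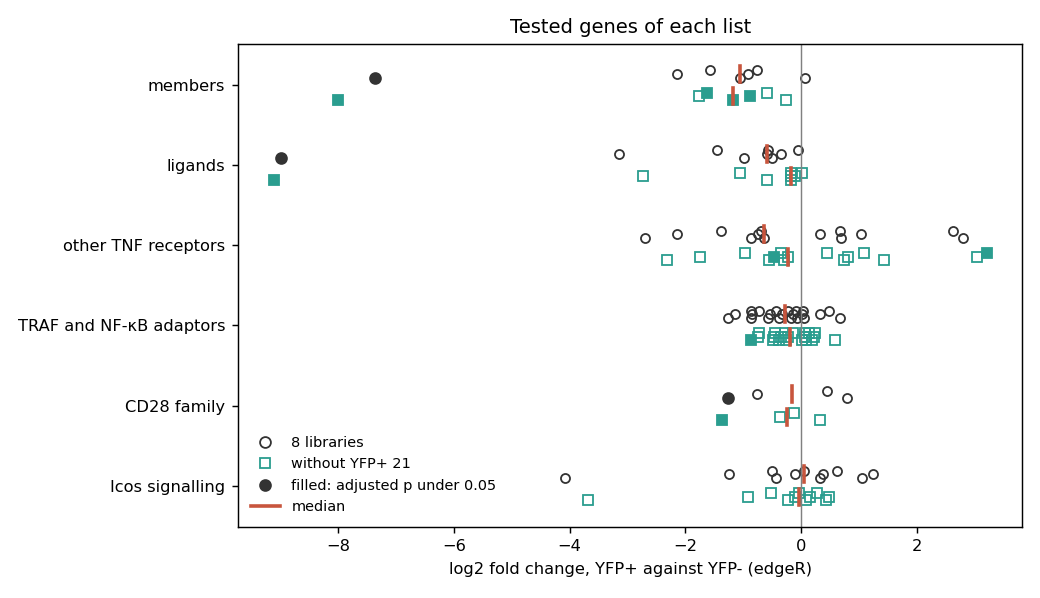
Log2 fold change of every tested gene of the members and of 5 related lists (edgeR), over 8 libraries (circles) and without the YFP+ library 21 (squares); filled symbols have an adjusted p under 0.05 and red bars are medians. The members' medians, -1.05 and -1.19, are the lowest of the 6 lists. This order is a description only, because members and lists were chosen with earlier results of these data known. The fitted value of *Tnfsf15*, at the far left, depends on the prior count because its YFP+ libraries are all at 0.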

How the data were processed

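CD4+ CD25+ Treg cells of 4 YFP- and 4 YFP+ libraries were profiled by bulk RNA-seq. The deposited table holds raw counts, 1 row per Ensembl gene with its symbol and 1 column per library. The submitters' processing notes name Trim Galore, STAR and mm10; versions, counting tool and strand mode were not stated in the sources used here. Column names equal the sample titles.

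Members were matched by symbol, taking the identifier with the highest total. The test was the quasi-likelihood F test of edgeR 4.0.16 in R 4.3.3, fitted to all 8 libraries with the fraction as single factor. Before it, filterByExpr removed low genes (min.count 10, min.total.count 15) and TMM factors were computed. P-values were adjusted by Benjamini-Hochberg over every tested gene, and 0.05 was the limit for a call. SE is |log2 fold change| divided by the root of F. Single values were compared by exact permutation in Python 3.11.15. Alternatives were DESeq2 1.42.0 on all genes, RLE factors, robust dispersion, an unfiltered table, a higher filter (at least 5 CPM in at least 4 libraries), the library number as a block, a pseudocount of 0.1, total counts without TMM factors, and each library left out. The scripts were tested on simulated data. Positions are from GENCODE M21, which matched 42462 of 42748 identifiers (99.3%), promoters from RefSeq, which had no entry used for *Icos*. A count of 3 equals 0.0374 to 0.0620 CPM (YFP-) or 0.0577 to 0.142 CPM (YFP+). Intervals and floors cover counting error only, since reads without molecular identifiers are not independent molecules.

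The members and lists were chosen with earlier results of these data known. Named genes are the members, the called and the 3 most abundant genes of each list, the genes most like each member, and neighbours. *Tnfrsf13c*, *Tnfrsf26*, *Tnfaip3* and *Tnf* were added after their values were seen.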

Additional observations from a re-analysis of the deposited data

Results flagged for a closer look

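Dixon's ratio, the gap of the extreme library to its nearest neighbour over the group's range, was computed on log2(CPM + 1) for 14 groups of 4 libraries. It passed the 95% critical value for 4 samples in 3 groups, where chance gives 0.7. *Tnfrsf1b* was lowest in the YFP+ library 21 (ratio 0.975; 3.70 CPM against 84.4 to 90.9 CPM), and *Tnfrsf4* was highest there (0.955; 967 CPM against 485 to 500 CPM). *Tnfrsf9* was highest in the YFP+ library 48 (0.969; 1.06 CPM against 0 to 0.0223 CPM).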

How the results depend on the processing

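Over 15 alternatives the log2 fold changes of the 7 members gave 104 values, of which 86 kept direction and side of the threshold, 7 lost the call, 7 gained one and 4 changed sign. All 7 losses were of *Tnfrsf8*, in the 7 settings in which edgeR called 0 genes at all, and the 4 sign changes were of *Tnfrsf4* (-0.054 without a filter on low counts, -0.26 without the YFP+ libraries 21 and 48, -0.26 to 0.16 with 1 library left out). Its permutation p was 0.2, with the sign turned, on total counts without TMM factors. *Tnfrsf9* could not be fitted under the stricter filter, which removes it. The 131 genes called became 1310 in DESeq2, 10 without a filter, 9 with the stricter one, 940 without the YFP+ libraries 21 and 48, and 0 to 1052 with 1 library left out. Members called were 1 over all libraries, 2 in DESeq2, 3 without the YFP+ libraries 21 and 48 and 0 to 4 with 1 library left out. With 1 library left out, called genes were 0 to 1 among the ligands, 0 to 2 among other receptors, 0 to 1 among TRAF and NF-κB adaptors, and 0 to 1 in the CD28 family. With the library number as a replicate block 0 genes and 0 members passed in edgeR (unadjusted p under 0.05 for 1440 genes and 2 members), and *Tnfrsf8* had an adjusted p of 0.347. Equal numbers are not stated to share a mouse. Deviations of equal-numbered libraries from their group means correlated at 0.0646 to 0.169, and 7 of 8 libraries correlated best with their own number. *Tnfrsf13b* turned to -0.26 with that block, and ranged from -0.081 to 0.74 with 1 library left out. The sign also turned for *Ltb* (0.041), *Tank* (-0.19) and *Nfkbia* (0.11) without the YFP+ libraries 21 and 48, and with 1 library left out these ranged from -0.11 to 0.0090, -0.14 to 0.65 and -0.21 to 0.13, and *Cd28* from -0.12 to 0.66. *Ctla4* lost its call in 10 of 15 alternatives and *Tnfsf15* in 8 of 14, the replicate block included (adjusted p = 0.338 and 0.450). The causes were not tested. Counts of *Tnfrsf9* and *Tnfsf15* are low, and *Tnfrsf18* and *Cd27* have none.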
